A study of Bos taurus with 9 samples.

Results

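The regions described here are stretches of cattle DNA where a peak of RNA polymerase II (RNA pol II), the enzyme that transcribes genes, lay on a peak of H3K9me3, the trimethylation of histone H3 at lysine 9. They were chosen from the peak lists themselves. Overlapping peaks of the 2 RNA pol II lists were merged into 2389 regions, and a region was kept when it shared at least 1 bp with an H3K9me3 peak of either time point. A dense cluster of such regions, at 50 to 52 Mb of chromosome 17 on the assembly UMD3.1.1, was left out. This gave 555 regions of the 2389. Outside the chromosome 17 window, 1627 RNA pol II regions touched no H3K9me3 peak, and the window held the other 207.

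H3K9me3 marks repressed chromatin and is abundant at silenced repeats and near centromeres, where it is bound by heterochromatin proteins. RNA pol II is found at promoters and along transcribed genes, as are acetylated histones. H3K9ac is acetylation of the same lysine that H3K9me3 occupies, and 1 histone tail cannot carry both there. It goes with active promoters, and H3K27ac, acetylation of lysine 27, with active promoters and enhancers.

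The tissue was rumen epithelium of Holstein calves, taken before weaning or after weaning, when the diet moves from milk to solid feed and the rumen lining matures. Neither genotypes, treatments other than weaning nor the ages of the calves are given in the labels, and no label says how many calves gave each library. ChIP-seq (sequencing of chromatin pulled down by an antibody) was done with 1 library for each of 4 targets at each time point, 8 in all, with 1 input library of unselected chromatin as the background of all of them. By the labels, lane 1 of the sequencer held H3K9ac of both time points and lane 2 held H3K27ac and RNA pol II of both. The H3K9me3 libraries were split, lane 2 before weaning and lane 1 after it, and for H3K9me3 the lane cannot be told apart from the time point.

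The lists held 2056 RNA pol II peaks before and 738 after weaning, 2410 and 4170 H3K9me3 peaks, 14384 and 2127 H3K9ac peaks, and 74249 and 30446 H3K27ac peaks. The lists do not hold their read depth, and the read totals that the study gives were not used here. With no replicates, no difference between the time points could be tested, and intervals below are 95% Wilson intervals that cover counting error only. Neighbouring regions are not independent, which makes these intervals too narrow. The text of the study names the shortest RNA pol II list as the one before weaning, while the labels give it as the one after weaning. The labels were followed, and each sentence on the time of RNA pol II rests on them. Whether the shared input had a part in peaks that recur at 1 place was not tested.

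The time point of RNA pol II differed between the regions that were on H3K9me3 and those that were not, and this is a description, since the same lists chose the regions. RNA pol II was present at both time points in 255 regions on H3K9me3 (45.9%), only after weaning in 233 (42.0%) and only before weaning in 67 (12.1%). Among the 1627 regions not on H3K9me3, 1574 had RNA pol II only before weaning, 34 only after weaning and 19 at both. Seen from the RNA pol II lists, 322 of the 1915 regions with a peak before weaning were on H3K9me3 (16.8%, interval 15.2 to 18.6). Of the 541 regions with a peak after weaning, 488 were on H3K9me3 (90.2%, interval 87.4 to 92.4). The RNA pol II list after weaning, though shorter, thus lay mostly on H3K9me3 even outside the chromosome 17 window.

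H3K9me3 itself was present at both time points in 463 of the 555 regions (83.4%). It was found only before weaning in 59 and only after weaning in 33. In 237 regions all 4 lists of RNA pol II and H3K9me3 had a peak. The 2 targets shared a time point in 526 regions (94.8%), while the other regions joined RNA pol II of one time point to H3K9me3 of the other. The overlap was seldom marginal, as 410 regions (73.9%) lay wholly inside H3K9me3 peaks and 13 were covered by less than 50%.

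**Figure D1:**
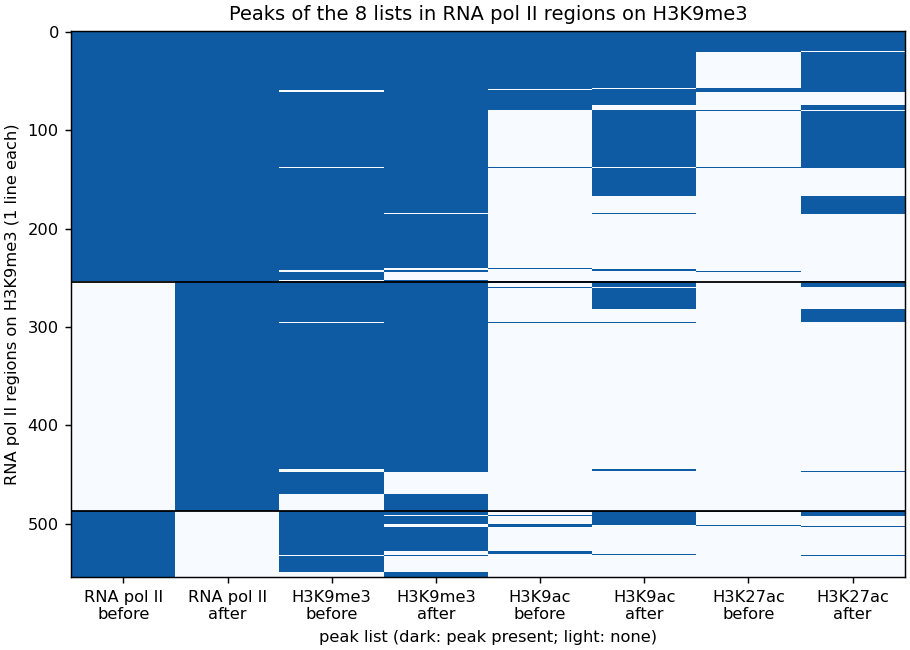
Peaks of the 8 lists (columns) in the 555 RNA pol II regions on H3K9me3 (1 horizontal line each), dark where a list had a peak. Black lines separate the 255 regions with RNA pol II at both time points (top), the 233 with it only after weaning (middle) and the 67 with it only before weaning (bottom); acetylation touched 192 of the top 255 and 45 of the middle 233.

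The regions near the threshold were small overlaps of narrow peaks. The 5 smallest overlaps that were kept measured 11, 55, 61, 61 and 81 bp. The first of them, chr5:8812565-8812801, was an RNA pol II peak of 237 bp after weaning that met an H3K9me3 peak of 429 bp before weaning, and no other list had a peak there. The 5 nearest regions left out were 3, 46, 116, 216 and 230 bp from an H3K9me3 peak. The nearest, chr3:12075324-12075598, was a peak of the RNA pol II list after weaning alone.

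Acetylation had no part in the choice of the regions. A peak of H3K9ac or H3K27ac touched 258 of the 555 (46.5%, interval 42.4 to 50.6), against 82.4% of all 2182 RNA pol II regions outside the window. H3K9ac touched 224 of them, H3K27ac 174, and both marks 140. The remaining 297 regions (53.5%) had no acetylation peak in any of the 4 lists. Among regions not on H3K9me3, 1540 of 1627 were acetylated (94.7%), which makes a difference of -48.2 percentage points (interval -52.4 to -43.8). With regions built from the RNA pol II list after weaning alone, a setting chosen after the values were seen, the difference was not detectable. It was then 8.86 points (interval -5.28 to 21.7), with 53 regions off H3K9me3. With the list before weaning alone it was -30.2 points.

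More of the regions on H3K9me3 were acetylated after weaning than before, for both marks. H3K9ac touched 94 regions before weaning (16.9%, interval 14.0 to 20.3), where 44.8% of all RNA pol II regions outside the window did. After weaning it touched 210 (37.8%, interval 33.9 to 41.9), against 14.7% of all. The ratio of after to before was 2.23, with 80 regions shared, 14 before only and 130 after only. H3K27ac touched 31 regions before weaning (5.59%, interval 3.96 to 7.82), against 71.6% of all, and 170 after weaning (30.6%, interval 26.9 to 34.6), against 60.9% of all. The ratio was 5.48, with 27 regions shared, 4 before only and 143 after only.

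These counts ran against the lengths of the lists, since both acetylation lists were shorter after weaning. In regions not on H3K9me3, 96.7% of which entered only through the RNA pol II list before weaning, the counts were lower after weaning. There H3K9ac touched 884 regions before weaning and 110 afterwards (ratio 0.124), and H3K27ac touched 1532 and 1159 (ratio 0.757). In the 19 of them with RNA pol II at both time points, H3K9ac touched 14 before and 4 after weaning, while H3K27ac touched 15 at each time point. The choice by the RNA pol II list and the difference in time therefore cannot be told apart off H3K9me3 for H3K27ac. Seen from the acetylation lists, 215 of the 2127 H3K9ac peaks after weaning lay on the 555 regions (10.1%), against 96 of 14384 before weaning (0.667%). For H3K27ac the share was 0.575% (175 peaks) after weaning and 0.0431% (32 peaks) before.

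The direction held for regions built from either RNA pol II list. The H3K9ac ratio was 2.01 with the list before weaning and 2.31 with the list after weaning, and the H3K27ac ratios were 4.72 and 5.69. The time labels of the acetylation lists carry these ratios, and those of RNA pol II do not enter them. The H3K27ac ratio has a small denominator. Of its 31 regions before weaning, 21 had peaks in all 8 lists. Leaving these out takes the same number from both time points, which can only raise a ratio above 1, and gave 14.9. When at least 50% of a region had to be covered, both by H3K9me3 and by the acetylation peak, it was 9.91.

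**Figure D2:**
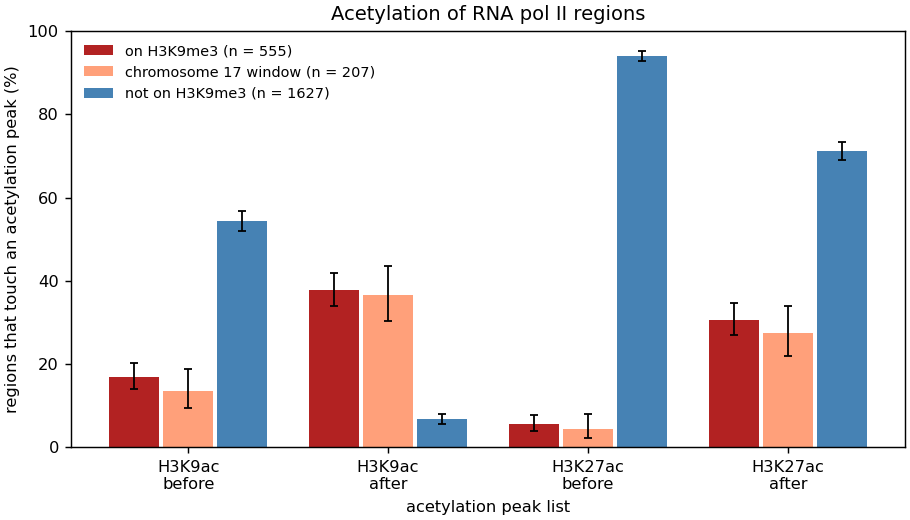
Share of RNA pol II regions (percent, vertical axis) that touched a peak of each acetylation list (horizontal axis), for the 555 regions on H3K9me3, the 207 of the chromosome 17 window and the 1627 not on H3K9me3; error bars are 95% Wilson intervals. On H3K9me3 the share was 16.9% before and 37.8% after weaning for H3K9ac, while off H3K9me3 it was 54.3% and 6.76%.

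The acetylated share was highest where RNA pol II was present at both time points. These regions were also the widest, with a median of 471 bp, and width was not held equal between the classes. Where RNA pol II was present at both time points, 192 of 255 regions were acetylated (75.3%, interval 69.7 to 80.2). In this class H3K9ac touched 82 regions before and 165 after weaning, and H3K27ac 29 and 144. Where RNA pol II was present only after weaning, 45 of 233 were acetylated (19.3%, interval 14.8 to 24.9), with H3K9ac in 4 and 30 regions and H3K27ac in 0 and 19. The count of 0 allows a share of up to 1.29% by a limit of 3 counts and 1.62% by the Wilson interval. Where RNA pol II was present only before weaning, 21 of 67 were acetylated (31.3%, interval 21.5 to 43.2), with H3K9ac in 8 and 15 regions and H3K27ac in 2 and 7. Both marks thus had more regions after weaning in every class, also where the RNA pol II peak itself was found only before weaning.

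Against regions of the same RNA pol II class that were not on H3K9me3, the acetylated share did not differ in 1 direction. For RNA pol II only before weaning, 31.3% of regions on H3K9me3 and 96.5% of those off it were acetylated, a difference of -65.2 points (interval -75.0 to -53.3). For RNA pol II only after weaning the difference was 7.55 points (interval -7.99 to 16.6), with 34 regions off H3K9me3. For RNA pol II at both time points it was -14.2 points (interval -23.6 to 7.25), with 19 regions off H3K9me3. For either mark together, the last 2 intervals hold 0 and allow a difference in either direction. With RNA pol II at both time points, H3K9ac differed by -41.5 points before weaning (interval -57.0 to -18.3) and 43.65 after (20.6 to 57.4). H3K27ac differed by -67.6 points before (-80.6 to -44.9) and -22.5 after (-36.4 to 0.584). With RNA pol II only after weaning, H3K9ac before weaning differed by -7.11 points (-21.3 to -0.766) and H3K27ac by -11.8 (-26.6 to -4.49). After weaning, both intervals of that class hold 0.

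Among the classes of H3K9me3, the acetylated share was highest where H3K9me3 was present at both time points. In that class 236 of 463 regions were acetylated (51.0%, interval 46.4 to 55.5). Of the 59 regions with H3K9me3 only before weaning, 12 were (20.3%, interval 12.0 to 32.3), and of the 33 with H3K9me3 only after weaning, 10 were (30.3%, interval 17.38 to 47.34). The last interval overlaps that of the 463. RNA pol II was present at both time points in 237 of the 463, 12 of the 59 and 6 of the 33. The class of RNA pol II and that of H3K9me3 were not separated here. The 59 regions were also the exception to the direction in time, with H3K9ac in 8 before and 6 after weaning, while H3K27ac was in 1 and 3.

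The marks combined in a few patterns. H3K9ac and H3K27ac together, both only after weaning, were found in 65 regions, and H3K9ac only after weaning, without H3K27ac, in 63. A further 39 regions had H3K9ac at both time points with H3K27ac only after weaning. H3K27ac only after weaning, without H3K9ac, was found in 33 regions, and 24 had both marks at both time points. Off H3K9me3 the commonest pattern was another one, H3K9ac only before weaning with H3K27ac at both time points, in 705 regions.

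H3K9me3 regions that held no RNA pol II were seldom acetylated. The H3K9me3 peaks of both time points merged into 4750 regions outside the window, of which 493 held RNA pol II. Of those 493, 243 were acetylated (49.3%, interval 44.9 to 53.7), against 89 of the 4257 without RNA pol II (2.09%, interval 1.70 to 2.57). In the 4257, H3K9ac touched 13 regions before and 22 after weaning, while H3K27ac touched 58 before and 21 after, so H3K27ac went the other way there. The regions with RNA pol II were wider, with a median of 551 bp against 231 bp, and a wide region has more room to touch a peak. The part that width had in these shares was not tested. Among H3K9me3 regions of 500 bp or more, 177 of 281 with RNA pol II were acetylated (63.0%) and 3 of 205 without it (1.46%). Among those under 350 bp, the shares were 23.3% and 2.03%.

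Regions on H3K9me3 were short, as all RNA pol II regions were. Their median width was 328 bp (interval 315 to 346), with a range of 200 to 1464 bp, against 262 bp (interval 255 to 266) off H3K9me3. Regions with RNA pol II at both time points had a median of 471 bp, those with it only after weaning 263 bp and those with it only before weaning 243 bp. Off H3K9me3 the same classes had medians of 415, 213 and 263 bp. Regions with RNA pol II only before weaning were thus not wider on H3K9me3. Acetylated regions had a median of 454 bp and the others 272 bp. The width grew with the number of lists that had a peak, from a median of 232 bp in the 61 regions with 2 lists to 743 bp in the 21 regions with all 8. This is partly so by construction. Peaks of both RNA pol II lists are joined into a single region, and a wide region has more room to touch a peak.

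**Figure D3:**
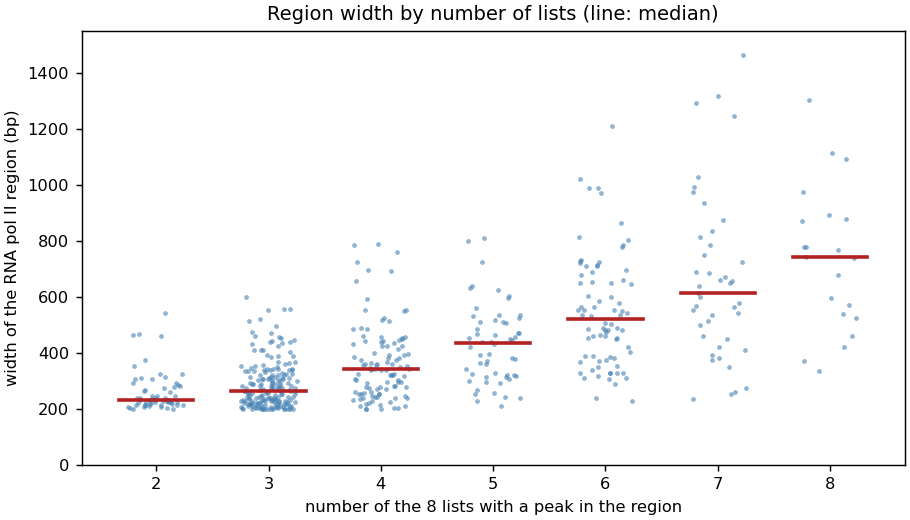
Width of each of the 555 regions (bp, vertical axis) against the number of the 8 lists with a peak in it (horizontal axis; points are regions, spread sideways for clarity, and lines are medians). The median rises at every step, from 232 bp with 2 lists to 743 bp with 8. Width and number of lists are not independent, since a wide region has more room to touch a peak.

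The acetylated share grew with width on H3K9me3 and was high at every width off it. A wide region has more room to touch a peak, and the part of this in the rise was not tested. On H3K9me3 it was 17.7% under 250 bp, 32.7% from 250 to under 350 bp, 57.4% from 350 to under 500 bp and 86.6% from 500 bp on. Off H3K9me3 the same classes had 92.3%, 95.2%, 97.7% and 99.2%. In each of the 4 width classes on H3K9me3, both H3K9ac and H3K27ac had more regions after weaning. In the widest class H3K9ac touched 56 of 127 regions before and 98 after weaning, and H3K27ac 22 and 92.

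The acetylation peaks on these regions were narrow, and their midpoints lay closer to that of RNA pol II than off H3K9me3. H3K27ac peaks had a median width of 295 bp before and 320.5 bp after weaning on these regions, against 1044.5 and 435 bp on regions off H3K9me3. For H3K9ac the medians were 296.5 and 301.5 bp on H3K9me3 and 344.5 and 252.5 bp off it. The midpoint of an H3K27ac peak after weaning lay at a median of 52.75 bp from that of the RNA pol II region on H3K9me3, and 122 bp off it. H3K9ac after weaning lay at 42.75 bp and 108.25 bp. The H3K9me3 peaks were wider than the RNA pol II peaks, with medians of 533 bp before and 502 bp after weaning.

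Where a target had a peak in a region at both time points, the peak after weaning was more often the wider for RNA pol II and both acetylation marks. RNA pol II was wider after weaning in 172 of 255 such regions and before weaning in 75, and the median went from 344 to 416 bp. H3K9ac was wider after weaning in 57 of 80 regions and H3K27ac in 21 of 27. For H3K9me3 the counts were close, with 241 of 463 wider after weaning and 216 wider before.

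The 21 regions with peaks in all 8 lists had peaks of the repressive mark and of the active marks in the same short stretch. The widest, chr5:100987021-100988324, spanned 1304 bp. There RNA pol II peaks measured 978 bp before and 1304 bp after weaning, and H3K9me3 peaks 1348 and 2131 bp. The H3K9ac peaks measured 660 and 970 bp and the H3K27ac peaks 644 and 762 bp, so each of the 4 targets had its wider peak after weaning there.

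On chromosome 23 there were 2 regions of similar width. At chr23:9846903-9848018 the H3K9ac peak measured 311 bp before and 971 bp after weaning and the H3K27ac peak 308 and 733 bp, while the H3K9me3 peak measured 1862 and 1746 bp. At chr23:11034960-11036052 the H3K9ac peaks measured 816 and 929 bp and the H3K27ac peaks 470 and 953 bp. In both, acetylation was wider after weaning. The RNA pol II peaks measured 1006 and 1116 bp in the first and 1091 and 960 bp in the second.

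Chromosome 19 held a pair of these regions within a few kb. At chr19:3963953-3964926 the H3K27ac peak measured 295 bp before and 725 bp after weaning, and at chr19:3960099-3960877 it measured 218 and 707 bp. The other regions of the 10 widest were chr6:6008455-6009347, chr9:7771303-7772181, chr8:28305182-28306054, chr9:7777307-7778084 and chr29:9778422-9779188. At chr29:9778422-9779188 H3K9ac measured 354 and 789 bp. An acetylation peak was wider before weaning in 2 of the 10. At chr9:7777307-7778084 this was H3K9ac, with 395 bp against 219 bp, and at chr6:6008455-6009347 it was H3K27ac, with 356 bp against 344 bp.

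Of the 237 regions with RNA pol II and H3K9me3 at both time points, 54 had no acetylation peak. The widest of them was chr17:49115141-49115928, just below the window that was left out. There RNA pol II measured 774 bp before and 207 bp after weaning and H3K9me3 916 and 558 bp. At chr5:38243777-38244471 RNA pol II measured 348 and 695 bp and H3K9me3 723 and 692 bp. The next 3 were chr17:73002372-73003062, chr14:21173803-21174458 and chr19:12542663-12543253, with widths of 691, 656 and 591 bp.

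The widest region with RNA pol II only after weaning, chr19:3905245-3906029, had an RNA pol II peak of 785 bp. H3K9me3 peaks of 485 and 826 bp lay there, with 1 acetylation peak, H3K27ac after weaning, of 240 bp. At chr9:7789640-7790398 and chrX:31860309-31861034 the acetylation peak was H3K9ac after weaning, of 266 and 364 bp. The other 2 of the 5 widest, chr10:64473644-64474244 and chr17:25042481-25043037, had no acetylation. The last of them lay in an H3K9me3 peak of 2731 bp before and 8908 bp after weaning, the longest H3K9me3 peak on any of the 555 regions. At 557 bp, chr17:25042481-25043037 was tied in width with chr19:3955937-3956493, and the first by chromosome order was taken.

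Among the regions with RNA pol II only before weaning, the widest was chr17:53142636-53143200. H3K27ac peaks of 2036 and 1056 bp lay there, and H3K9me3 peaks of 231 and 203 bp covered 40.9% of it. The next were chr29:6581884-6582336 and chr24:47070237-47070675, of 453 and 439 bp. The first had no acetylation, and the second had an H3K9ac peak of 388 bp before weaning.

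The regions were unevenly spread over the chromosomes. Chromosome 9 held 84 of them (15.1%), chromosome 17 outside the window 59, chromosome 19 50, chromosome 6 45, chromosome 14 41 and chromosome 13 32. On chromosome 9 they made up 67.7% of all RNA pol II regions, on chromosome X 57.1% (16 regions) and on chromosome 14 53.9%. Chromosome 1 had 2 of its 75 RNA pol II regions on H3K9me3, and chromosome 20 had 0 of 26, which allows a share of up to 11.5% by a limit of 3 counts and 12.9% by the Wilson interval. Each chromosome with 20 or more of the regions had all 3 time classes except chromosome 8, with 13 regions at both time points, 13 only after weaning and 0 only before.

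**Figure D4:**
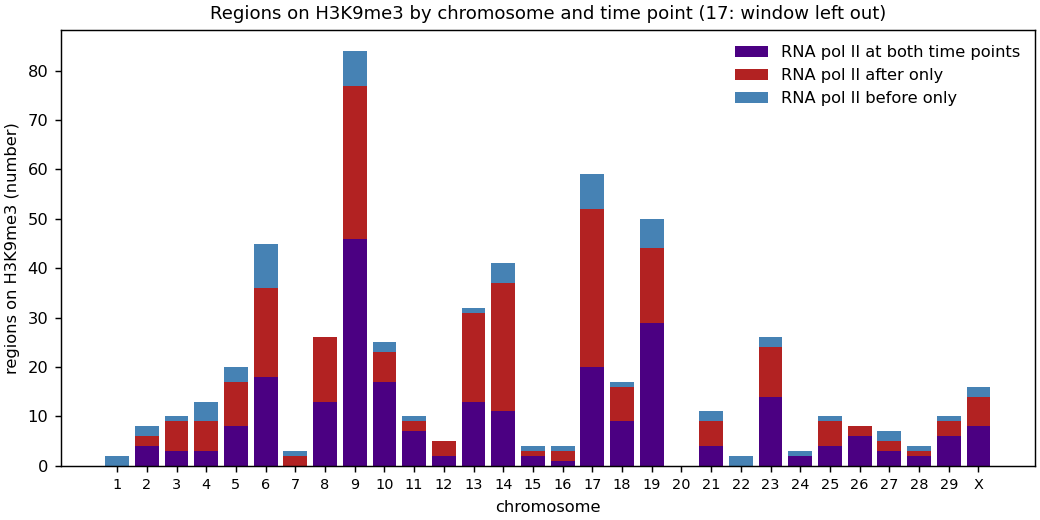
Number of RNA pol II regions on H3K9me3 (vertical axis) on each chromosome (horizontal axis), stacked by the time points at which RNA pol II had a peak; chromosome 17 is shown without the window. Chromosome 9 held 84 regions, of which 46 had RNA pol II at both time points, 31 only after and 7 only before weaning.

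They lay close together. The median distance to the nearest region of the same kind was 0.865 kb on H3K9me3 and 111 kb off it. A neighbour lay within 10 kb of 404 of the 555 regions (72.8%, interval 68.9 to 76.3), and of 29.8% of the regions off H3K9me3. Some shared a single H3K9me3 region, as 52 merged H3K9me3 regions held more than 1 of them and the fullest held 8.

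Cattle autosomes carry the centromere at one end. On the 29 autosomes, 202 of 539 regions on H3K9me3 lay in the first 10 Mb by coordinate (37.5%, interval 33.5 to 41.6), against 141 of 1615 off it (8.73%). In the last 10 Mb the shares were 6.12% and 13.6%. In the first 3 Mb, nearer the end, the shares were closer, with 33 of 539 (6.12%) on H3K9me3 and 48 of 1615 (2.97%) off it. These ends were examined after the positions had been seen, and few places carried much of the difference. Without the 9 largest groups of regions, defined next, 69 of 345 lay in the first 10 Mb (20%, interval 16.1 to 24.5).

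Regions at most 100 kb apart were joined into groups. This gave 191 groups, of which 106 held a single region. The 27 groups of 5 or more held 300 regions (54.1%), and the 9 groups of 11 or more held 194. By fixed bins of 1 Mb, the 5 densest held 146 regions (26.3%), with 43 in 25 to 26 Mb of chromosome 17, 41 in 7 to 8 Mb and 18 in 27 to 28 Mb of chromosome 9, 25 in 3 to 4 Mb of chromosome 19 and 19 in 6 to 7 Mb of chromosome 6. In these bins 41.8% of regions were acetylated (interval 34.1 to 49.9), and elsewhere 48.2% (interval 43.4 to 53). The fifth place was tied between 3 bins of 18 regions, and the first by chromosome order was taken. With 5 to 6 Mb of chromosome 13 in its place the acetylated share was 39.7%, and with the first 1 Mb of chromosome 14 it was 37.0%.

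The largest group, chr17:25028922-25127144, packed 43 regions into 98.2 kb, and H3K9me3 peaks covered 56.9% of that stretch. RNA pol II was present only after weaning in 28 of its regions, at both time points in 10 and only before weaning in 5. Acetylation touched 9 of the 43, with H3K9ac in 2 regions before and 7 after weaning and H3K27ac in 0 and 6. None of them had peaks in all 8 lists.

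The group at chr19:3903132-4042199 held 33 regions over 139.1 kb, with H3K9me3 peaks over 22.2% of the stretch. Of these, 21 were acetylated (63.6%, interval 46.6 to 77.8), against 20.9% (interval 11.4 to 35.2) in the group on chromosome 17. RNA pol II was present at both time points in 21 of these 33 regions. The share of 63.6% was not particular to this group, as 7 of 11 regions at chr23:9207182-9224425 were acetylated too. H3K9ac was in 11 regions before and 19 after weaning and H3K27ac in 6 and 15, and 5 regions had peaks in all 8 lists.

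Chromosome 9 held the second and the fourth largest groups. At chr9:7754408-7817877 there were 36 regions, 15 of them acetylated, with H3K9ac in 4 before and 11 after weaning and H3K27ac in 3 and 9. At chr9:27198839-27244512 there were 18 regions, 10 of them acetylated, with H3K9ac in 4 and 8 and H3K27ac in 1 and 8. At chr13:5335993-5379004 there were also 18 regions, with no acetylation before weaning and with H3K9ac in 6 and H3K27ac in 4 after weaning. In each of the 9 groups of 11 or more, both marks had more regions after weaning than before, in some by small counts. At chr6:5675657-5802998 H3K9ac and H3K27ac were each in 1 region before and 2 after weaning. At chr14:714108-936512 H3K9ac was in 1 and 2 and H3K27ac in 0 and 1, and at chr6:6202369-6326971 H3K27ac was in 0 and 1.

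**Figure D5:**
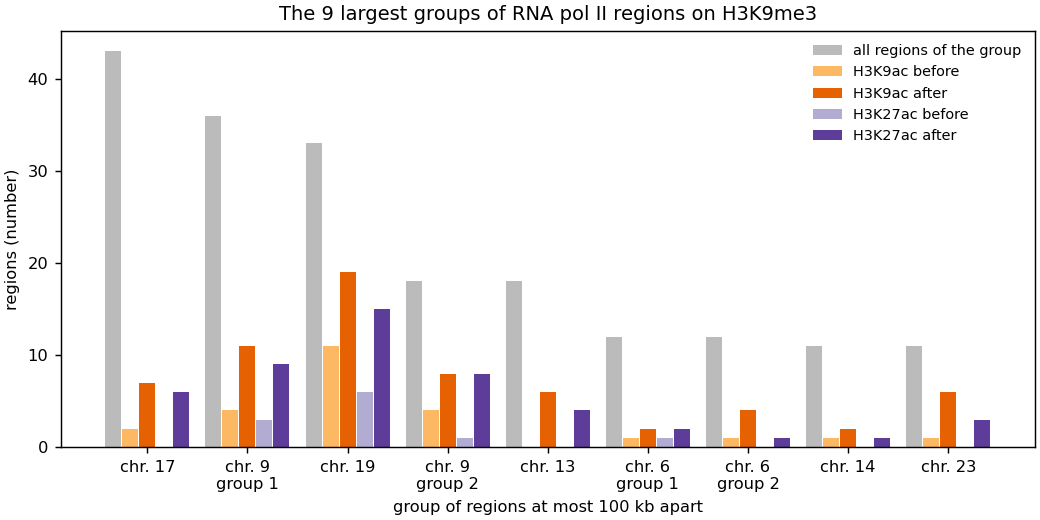
Number of regions (vertical axis) in the 9 largest groups of RNA pol II regions on H3K9me3 (horizontal axis, by chromosome): all regions in grey, those with H3K9ac in orange and those with H3K27ac in purple, lighter before and darker after weaning. In all 9 groups the darker bar is the taller of each pair, from 43 regions in the group on chromosome 17 to 11 in those on chromosomes 14 and 23. Some pairs are small counts, such as 1 and 2 for both marks in a group on chromosome 6.

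The acetylated shares of groups of different size had overlapping intervals. A mark touched 50% of the 106 single regions (interval 40.6 to 59.4), 49.7% of those in groups of 2 to 4, 49.1% of those in groups of 5 to 10 and 40.7% of those in groups of 11 or more (interval 34.1 to 47.8). Single regions had the highest share with RNA pol II only before weaning, 23.6% (interval 16.5 to 32.5), against 8.05% in groups of 2 to 4, 7.55% in groups of 5 to 10 and 11.3% in groups of 11 or more.

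The chromosome 17 window that was left out was described by the same measures. Of its 207 RNA pol II regions, 206 touched H3K9me3. Acetylation touched 96 of the 207 (46.4%, interval 39.7 to 53.2), with H3K9ac in 28 regions before and 76 after weaning and H3K27ac in 9 and 57. RNA pol II was present at both time points in 105, only after weaning in 83 and only before weaning in 19. Their median width was 319 bp. The intervals of these shares overlapped those of the 555 regions elsewhere. They did not overlap for both acetylation marks together in regions with RNA pol II at both time points, which were found in 36 of 105 in the window (34.3%, interval 25.9 to 43.8) and in 128 of 255 elsewhere (50.2%, interval 44.1 to 56.3).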

How the data were processed

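ChIP libraries were grouped by target and time point as given in the labels. Per the methods of the study, the authors aligned reads with BWA to UMD3.1.1, kept unique alignments with few mismatches and called peaks with MACS2 at default settings against the input. Trim Galore 0.4.1 is also named in the submitters' processing notes. The deposited values are peak positions in bp, 1 list per library, with no score, p-value or depth, so peak strength could not be compared. Positions were read as 1-based with both ends included. Unique alignment removes reads of recent repeats, which can thin out peaks in H3K9me3 chromatin.

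Peaks were merged and intersected in Python 3.11.15 with numpy 2.4.6 and pandas 2.3.3, with a minimum overlap of 1 bp. Wilson intervals were used for shares, Newcombe intervals for differences of shares and order statistics for medians. The overlap code was tested on simulated data. Regions were named by rule: the 10 widest with all 8 lists, the 5 widest with RNA pol II and H3K9me3 at both time points and no acetylation, the 5 widest with RNA pol II at a single time point, the 5 on either side of the threshold and the 5 densest bins of 1 Mb. The members, rules and lists were chosen with earlier results of these data known. The grouping of neighbours and the ends of chromosomes were added after the values were seen. Alternatives varied the overlap, merging, width, lists and places used. Genes, repeats, base composition, sequences and marker genes of the tissue were not analysed here, since no genome or annotation of this build was used.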

Additional observations from a re-analysis of the deposited data

Results flagged for a closer look

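The counts of acetylated RNA pol II regions went in opposite directions across weaning on and off H3K9me3. On H3K9me3, the ratio of regions after to before weaning was 2.23 for H3K9ac and 5.48 for H3K27ac. Off H3K9me3, it was 0.124 for H3K9ac and 0.757 for H3K27ac. Of the regions off H3K9me3, 96.7% entered only through the RNA pol II list before weaning, and in the 19 with RNA pol II at both time points H3K9ac touched 14 before and 4 after weaning and H3K27ac 15 and 15. With 1 library per group the difference between these ratios was not tested. Both H3K9ac libraries shared a lane, as did both H3K27ac libraries.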

How the results depend on the processing

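The 10 quantities were recomputed under 13 other settings, 2 of which, chosen after the data had been seen, used a single RNA pol II list and gave no share with RNA pol II after weaning. It was also decided then to recompute the H3K9ac and H3K27ac ratios of after to before weaning, and both stayed above 1 in each of the 13, at 2.01 to 2.83 and 4.44 to 14.9, although leaving out regions of all 8 lists can only raise them. A share, difference or median was taken as moved outside its counting interval, and a number of regions or a ratio when it moved by over 1.5 times. Of 128 values, 98 had not moved, 29 had and 1 changed sign, and the causes were not tested.

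With 50% of a region covered by H3K9me3 and, for acetylation, by the acetylation peak, shares with H3K9ac, H3K27ac and either mark were 32.3%, 20.7% and 37.3%, the difference to regions off H3K9me3 was -53.5 points and the H3K27ac ratio 9.91. Merging within 1 kb gave 360 regions on H3K9me3 (20.2% of all), with 47.5%, 36.1% and 52.8%, a difference of -41.6 points and a median width of 406.5 bp. Extending H3K9me3 and acetylation peaks by 1 kb gave 54.3%, 43.4% and 59.8%, and -36.6 points. With H3K9me3 after weaning only, 22.7% of regions were on it, the difference was -42.5 points and 91.3% had RNA pol II after weaning. Without the 5 densest bins, 20.1% were on H3K9me3. Without regions of all 8 lists, the H3K27ac ratio was 14.9. With RNA pol II before weaning only, 335 regions (17.4% of all) were on H3K9me3, with 60%, 46.3% and 66.3%, a difference of -30.2 points and a median width of 306 bp. With RNA pol II after weaning only, 90.3% were on H3K9me3 and the difference was 8.86 points, with an interval that holds 0 (-5.28 to 21.7).

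No paired analysis was possible because each group held 1 library and no result comes from a test. Read depth, not used here, and peak strength, which the lists do not hold, limit every count.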
